A study of Mus musculus with 8 samples.

Results

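The D1 and D2 medium spiny neurons (MSNs) of the striatum, the projection neurons named for the dopamine receptor each carries, were compared with each other within 4 single-cell RNA sequencing libraries. Their cells were those that the deposited annotation of the authors names D1 or D2. These were 3904 D1 and 2451 D2 cells, together 6355 of 14690 annotated striatal cells and of 23687 annotated cells in the series. The libraries came from male mice of the C57BL/6N strain, 2 from wild-type (WT) mice and 2 from Setd1a+/- mice, which carry a frameshift in 1 copy of the histone methyltransferase gene Setd1a. The frameshift was made with CRISPR-Cas9 in fertilized eggs, it lies before the part that encodes the catalytic SET domain, and the line was then backcrossed. Each library pooled the tissue of 2 mice, so single animals cannot be told apart. The labels give an age of 8 to 10 weeks and the tissue as nucleus accumbens (NAc), whereas the study's methods give an older age and its results name dorsal and ventral striatum.

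In the dorsal striatum, D1 MSNs form the direct pathway to the output nuclei of the basal ganglia. D2 MSNs there form the indirect pathway through the external globus pallidus. The receptor of D1 MSNs couples to stimulatory G proteins that raise cyclic AMP. That of D2 MSNs couples to inhibitory G proteins, while an adenosine receptor on the same cells acts through stimulatory ones. Both types are GABAergic and differ in the peptides they release: substance P and dynorphin are known for D1 MSNs and enkephalin for D2 MSNs.

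There were 1026 D1 and 676 D2 cells in WT replicate 1, 1287 and 752 in WT replicate 2, 583 and 335 in Setd1a+/- replicate 1 and 1008 and 688 in Setd1a+/- replicate 2. For each library the unique molecular identifiers (UMIs) of its D1 cells were added up, and likewise those of its D2 cells, which gave 8 sums of 1280027 to 4832411 UMIs. The median D1 cell had 2657 to 3664 UMIs over the 4 libraries and the median D2 cell 2740.5 to 4093, and the D2 median was the higher in every library. Mitochondrial genes took 3.82 to 4.90% of the D1 sums and 3.79 to 4.94% of the D2 sums. Between 1 and 3 MSN barcodes were shared by any pair of libraries. Levels are given in CPM (counts of a gene in every 1000000 UMIs of its sum). A difference is a log2 fold change (log2 FC), D1 minus D2, with its standard error (SE), from edgeR's quasi-likelihood test with the library as block. A gene was called when its FDR (Benjamini-Hochberg) was under 0.05 and its FC above 2.

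Setd1a, the mutated gene (chromosome 7, 127776670 to 127800122, GRCm38), was 14.1 and 15.7 CPM in the D1 cells and 18.4 and 16.1 CPM in the D2 cells of WT replicates 1 and 2. In Setd1a+/- replicates 1 and 2 it was 13.0 and 13.6 CPM in D1 cells and 11.7 and 11.4 CPM in D2 cells. In each type both Setd1a+/- values were below both WT values, on 15 to 76 UMIs per sum. The effect of genotype within a type was not tested, and the share of all genes with this order of libraries was not counted. The difference between D1 and D2 did not pass the test (log2 FC -0.13 ± 0.17, FDR 0.73 from edgeR). A frameshift need not lower the count of a gene, so these values are a weak check of the labels.

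The annotation was made by clustering the expression of the same cells. FDR values of this comparison therefore rank genes and are no independent test of a difference. The fit gave nearly all genes the same spread, so the SE and FDR are too small for genes that vary between libraries, and the value in each library is given beside them. A second grouping, which rests on 3 receptor genes alone, is described further on for the other genes.

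All 7 tested members of the D1 identity list were called higher in D1 cells, and all 7 tested members of the D2 identity list were called higher in D2 cells. The share of genes called was 1.91% over all 10425 genes tested, 1.39% higher in D1 and 0.518% higher in D2. Chrm4 and Eya1 of the D1 list and Ttc12 of the D2 list were too low to be tested, and Gpr52 of the D2 list was not found by its symbol among the genes counted.

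Drd1 (chromosome 13, 54051183 to 54055705, GRCm38), the D1 dopamine receptor, was counted at 140 and 147 CPM in the D1 cells of WT replicates 1 and 2 and at 164 and 158 CPM in those of Setd1a+/- replicates 1 and 2. In the D2 cells of the same libraries it was 6.68, 4.52, 3.12 and 5.72 CPM. The groups lay far apart in every library, at a log2 FC of 4.77 ± 0.13. Each SE printed here comes from the fit with its shared spread and is not the spread between libraries. The log2 ratios of Drd1 before normalization were 4.39, 5.02, 5.71 and 4.79 in the same order of libraries. Tac1 (chromosome 6, 7554879 to 7565834), the precursor of substance P, was 4045, 3741, 3867 and 3307 CPM in D1 cells and 499, 459, 590 and 352 CPM in D2 cells, in the same order of libraries. Its log2 FC was 2.93 ± 0.03, and D2 cells of every library still held 352 CPM or more. Pdyn (chromosome 2, 129686565 to 129699844), which encodes prodynorphin, was 487, 376, 349 and 307 CPM in D1 cells and 18.8, 9.04, 6.25 and 13.0 CPM in D2 cells, a log2 FC of 4.92 ± 0.09. D1 and D2 values of the 3 genes did not overlap. Isl1 and Ebf1, transcription factors of the D1 lineage, had log2 FC of 5.39 ± 0.18 and 3.75 ± 0.22. Slc35d3, linked to the delivery of the D1 receptor to the cell surface, had 4.18 ± 0.19, and Sfxn1, a mitochondrial serine transporter, 2.40 ± 0.09. Its level in D1 cells was uneven, with 256 CPM in Setd1a+/- replicate 1 against 95.1 to 145 CPM in the other 3 libraries.

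Drd2 (chromosome 9, 49340627 to 49408177), the D2 dopamine receptor, was 186, 174, 207 and 159 CPM in the D2 cells of WT replicates 1 and 2 and Setd1a+/- replicates 1 and 2. In D1 cells it was 10.9, 9.11, 5.50 and 4.77 CPM, lower in both Setd1a+/- libraries than in both WT libraries. The log2 FC was -4.54 ± 0.10, and the difference between genotypes did not pass the test (log2 -0.95, FDR 0.93 from edgeR). Adora2a (chromosome 10, 75316877 to 75334784), the adenosine receptor of D2 MSNs, was 582, 613, 557 and 486 CPM in D2 cells and 9.41, 12.6, 5.00 and 12.1 CPM in D1 cells, with a log2 FC of -5.83 ± 0.07 that was the most negative of all genes tested. Penk (chromosome 4, 4133531 to 4138819), the enkephalin precursor, was 5784, 5788, 6220 and 4959 CPM in D2 cells and 483, 499, 563 and 405 CPM in D1 cells, a log2 FC of -3.62 ± 0.02. The ratio of Penk hardly varied, at -3.61 to -3.47 over the 4 libraries on the log2 scale before normalization. Gpr6, a receptor that raises cyclic AMP without added ligand, had a log2 FC of -3.60 ± 0.11, and Grik3, a kainate receptor subunit, -3.00 ± 0.17. Sp9, a transcription factor that D2 MSNs need to form, reached only 12.5 to 22.4 CPM in D2 cells, with a log2 FC of -1.79 ± 0.21. Plxdc1 was the weakest of the list, at -1.42 ± 0.24, and its ratio in Setd1a+/- replicate 1 was -0.20.

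**Figure D1:**
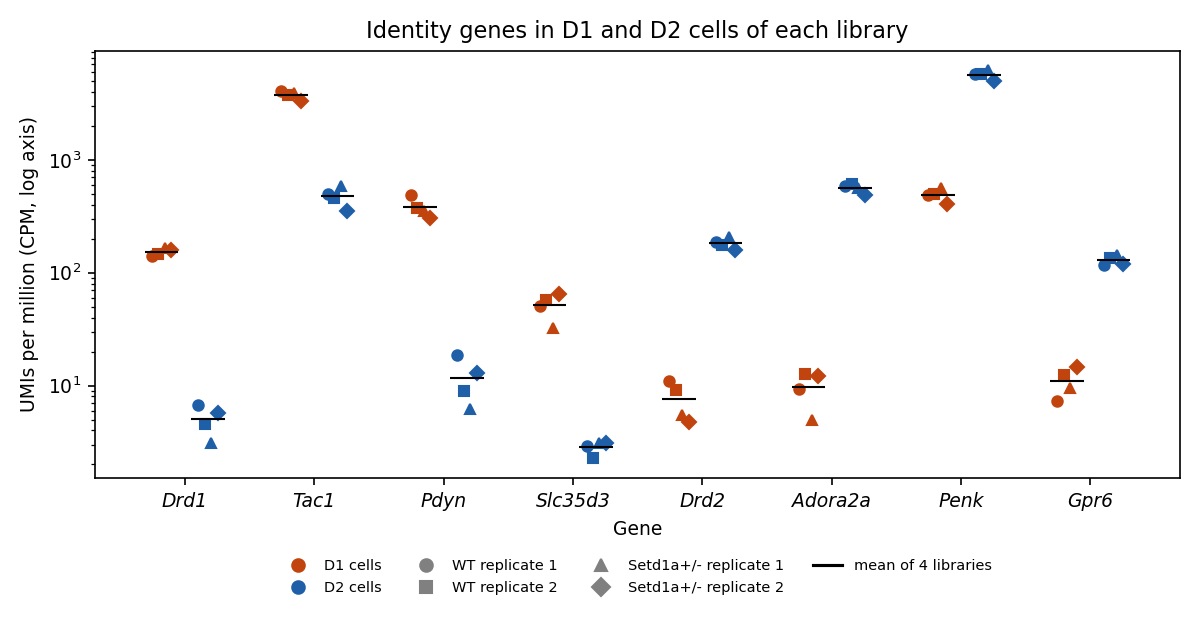
Level of 8 identity genes (CPM, log axis) in D1 cells (orange) and D2 cells (blue) of the 4 libraries, each library with its own symbol and the mean of 4 as a bar. Drd1, Tac1, Pdyn and Slc35d3 are higher in the D1 cells of every library and Drd2, Adora2a, Penk and Gpr6 in the D2 cells, with no overlap.

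The 250 bases before the first RefSeq start of 4 of these genes are shown. RefSeq and GENCODE starts differ, so that 182 bases of the Tac1 window and 47 of the Drd1 window lie inside the GENCODE gene, and Drd1 has 2 starts in the table. The genes are the first 2 members of each identity list that the RefSeq promoter table (GRCm38.p6) holds, written 5′ to 3′ on the strand of the gene. Capitals mark matches to any of 9 short motifs, sought on both strands: the cyclic AMP response element TGACGTCA, its shorter core TGACG, the variant TGCGTCA, the AP-1 site TGACTCA, the TATA box TATAAA, the homeodomain core TAATTA, the GC box GGGCGG, the E-box CATATG and the serum response element. Matches of TGACG lie inside those of TGACGTCA and TGCGTCA where these occur. Region and strand are chr13:54055659-54055908 (minus) for Drd1, chr6:7554811-7555060 (plus) for Tac1, chr9:49340153-49340402 (plus) for Drd2 and chr10:41072291-41072540 (minus) for Gpr6.
Drd1: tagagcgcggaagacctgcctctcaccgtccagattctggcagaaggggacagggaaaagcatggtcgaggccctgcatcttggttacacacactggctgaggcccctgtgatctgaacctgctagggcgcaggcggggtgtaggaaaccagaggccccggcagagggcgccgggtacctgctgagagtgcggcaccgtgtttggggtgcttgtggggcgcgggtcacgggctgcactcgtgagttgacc
Tac1: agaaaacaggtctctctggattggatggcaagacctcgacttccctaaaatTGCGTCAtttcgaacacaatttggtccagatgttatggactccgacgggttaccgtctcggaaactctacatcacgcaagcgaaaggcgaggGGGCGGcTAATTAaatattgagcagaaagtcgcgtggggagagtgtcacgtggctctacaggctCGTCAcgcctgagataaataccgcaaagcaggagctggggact
Drd2: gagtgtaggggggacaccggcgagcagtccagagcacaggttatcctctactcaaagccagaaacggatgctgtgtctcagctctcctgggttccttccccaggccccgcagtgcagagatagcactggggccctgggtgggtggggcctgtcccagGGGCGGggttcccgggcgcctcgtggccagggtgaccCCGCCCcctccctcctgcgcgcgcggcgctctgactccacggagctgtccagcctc
Gpr6: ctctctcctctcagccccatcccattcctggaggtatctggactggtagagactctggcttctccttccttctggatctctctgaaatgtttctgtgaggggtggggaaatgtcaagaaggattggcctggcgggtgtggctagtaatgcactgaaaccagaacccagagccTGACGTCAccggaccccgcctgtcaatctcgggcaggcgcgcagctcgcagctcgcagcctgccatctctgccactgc

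None of the 9 motifs was found in the Drd1 window, and the Drd2 window held GGGCGG at 2 places. The Tac1 window held TGACG at 2 places, 1 of them inside TGCGTCA, and single matches of GGGCGG and TAATTA. The Gpr6 window held 1 full TGACGTCA. Of the 27025 genes in the table, 17.9% had TGACG, 1.62% TGACGTCA, 1.78% TGCGTCA, 4.90% TAATTA and 32.9% GGGCGG in this window. Among called genes with an entry, TGACG was found for 18 of 102 higher in D1 (17.6%) and 14 of 40 higher in D2 (35.0%), and GGGCGG for 54.9% and 70.0%. Over all 8149 tested genes with an entry the shares were 29.1% and 60.9%. TGACGTCA was found for 0 of 102 and 2 of 40 called genes and 3.19% of tested genes, TGCGTCA for 5 and 1 and 3.31%, and TAATTA for 3 and 2 and 2.04%. A match is a description of the sequence, and no use of a site was measured.

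Single cells showed the same genes with many cells at 0 UMIs. Drd1 had a UMI in 33.8 to 39.3% of the D1 cells of a library and in 0.896 to 1.92% of the D2 cells, against 0.845 to 2.99% of oligodendrocytes and 1.11 to 3.78% of vascular cells. Drd2 had a UMI in 33.4 to 52.8% of D2 cells, 1.29 to 3.03% of D1 cells, 0.633 to 2.50% of vascular cells and at most 0.857% of oligodendrocytes, and the D1 share was above that of oligodendrocytes in every library. Adora2a had a UMI in 69.8 to 82.8% of D2 cells, 1.72 to 3.89% of D1 cells, 1.47 to 4.48% of oligodendrocytes and 9.66 to 13.1% of vascular cells. Tac1 had a UMI in 82.8 to 88.3% of D1 cells and also in 19.1 to 32.7% of D2 cells. Penk had a UMI in 95.8 to 98.5% of D2 cells and in 36.0 to 46.7% of D1 cells. In oligodendrocytes, which should lack both peptides, Tac1 was found in 10.5 to 20.2% of cells and Penk in 12.7 to 24.9%, at a median of 2035 to 2124 UMIs per cell (vascular cells 2082.5 to 2592) against 2657 to 4093 in the MSNs. Thinned to 1000 UMIs per cell, Penk was found in 22.3 to 26.2% of D1 cells against 6.00 to 14.9% of oligodendrocytes, and Tac1 in 11.3 to 15.4% of D2 cells against 4.33 to 10.5%. Penk was 1754 to 2314 CPM and Tac1 1393 to 1711 CPM in droplets with at most 100 UMIs, and the part of such free RNA in the lower level of each peptide gene was not tested.

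Counted by their receptors, 34.6% of the 3904 D1 cells had Drd1 without Drd2 or Adora2a, 3.07% had Drd2 or Adora2a without Drd1, 1.61% had both kinds and 60.7% had none of the 3. Of the 2451 D2 cells, 83.8% had Drd2 or Adora2a without Drd1, 5 cells (0.204%) had Drd1 alone, 1.43% had both and 14.6% had none. The opposite receptor was counted as 1 gene in D2 cells and as 2 genes in D1 cells. D1 cells with no receptor UMI were 56.4 to 63.7% over the libraries. The label of these cells rests on other genes.

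Over the whole transcriptome, 199 of 10425 genes were called, 145 higher in D1 cells and 54 higher in D2 cells. The calls were chosen for their difference in these same libraries, so the counts of direction and overlap that follow are no separate support. In 190 of the 199 the direction was the same in all 4 libraries. D1 and D2 values did not overlap for 178 of them, whereas 7.78% of all tested genes had no overlap. Most calls were of low genes: 39 of the 145 and 23 of the 54 had at least 20 CPM in the higher type in every library. Median levels were 14.2 CPM in D1 cells for the calls higher in D1 and 24.6 CPM in D2 cells for those higher in D2. Without the limit on FC, 603 genes were higher in D1 and 747 in D2 at an FDR under 0.05 (5.78% and 7.17%). That split depended on scaling, since with library size alone it was 971 and 403, or 70.7% higher in D1 against 44.7%. Klhl32 (log2 FC 1.00), Fos (-1.01) and Arc (-1.01) lay just inside the limit on FC, and Edil3 (1.00), Onecut2 (0.99) and Npas3 (-0.99) just outside it.

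**Figure D2:**
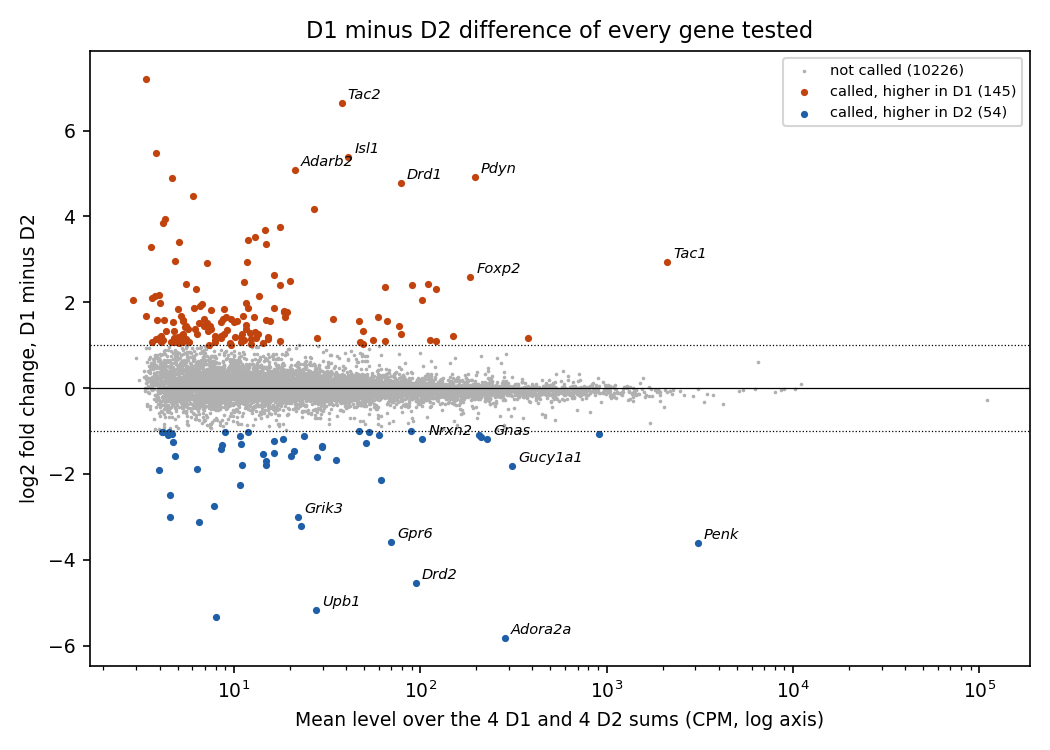
Log2 fold change, D1 minus D2, of the 10425 genes tested against their mean level (CPM, log axis). The dotted lines mark an FC of 2, and the 145 genes called higher in D1 (orange) and 54 called higher in D2 (blue) reach from low levels to those of Tac1 and Penk.

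The genes with the largest FC among calls of at least 20 CPM in every library of the higher type held many that are not on the identity lists. Tac2, which encodes neurokinin B, led the D1 side with 61.7, 105, 100 and 33.8 CPM in the D1 cells of WT replicates 1 and 2 and Setd1a+/- replicates 1 and 2. D2 cells held 1.94 CPM in WT replicate 2 and no UMI in the other 3 libraries, so the size of its log2 FC of 6.64 ± 0.23 rests on few UMIs and ranged from 6.30 to 10.1 with each library left out. Adarb2, a protein of the RNA-editing enzyme family, was 29.0 to 65.4 CPM against 0.520 to 1.56 CPM (log2 FC 5.09 ± 0.25). Foxp2, a transcription factor linked to striatal and speech circuits, was 299 to 359 CPM against 42.2 to 65.6 CPM (2.59 ± 0.07). Stmn2, a microtubule regulator of growing axons, was 132 to 244 CPM against 25.0 to 52.3 CPM (2.41 ± 0.08). Interneurons held Stmn2 at 562 to 959 CPM and droplets with at most 100 UMIs at 156 to 287 CPM, and the part of such RNA was not tested. Mdk, a heparin-binding growth factor, and A2ml1, a protease inhibitor, had log2 FC of 2.40 ± 0.18 and 2.48 ± 0.18. Neuroblasts held Mdk at 852 to 1345 CPM, far above its level in D1 cells. D1 and D2 values of none of these 6 genes overlapped.

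On the D2 side, Upb1, an enzyme of pyrimidine breakdown, followed Adora2a, with 81.8, 45.2, 37.5 and 49.4 CPM in D2 cells and 0.621 to 3.23 CPM in D1 cells (log2 FC -5.17 ± 0.19). P2ry1, a receptor for extracellular ADP, was 32.8 to 49.3 CPM against 3.31 to 7.34 CPM (-3.21 ± 0.17). Adk, adenosine kinase, which removes adenosine, was 79.7 to 115 CPM against 18.4 to 29.5 CPM (-2.14 ± 0.09). Gucy1a1, a subunit of the nitric oxide receptor guanylate cyclase, was 391 to 531 CPM against 132 to 153 CPM (-1.81 ± 0.05). Fig4, a lipid phosphatase, Sgcz, a sarcoglycan, Unc5d, a netrin receptor, B3gat1, which makes the HNK-1 carbohydrate, and Cacna2d2, a calcium channel subunit, had log2 FC between -1.68 and -1.28. Groups did not overlap for these 9 genes.

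MSNs were also grouped by their receptors in place of their D1 or D2 label: cells with Drd1 and neither Drd2 nor Adora2a against cells with Drd2 or Adora2a and no Drd1, with the 3 genes left out of the counts. This kept 200 to 479 D1 and 300 to 725 D2 cells per library, and it called 102 of 9150 genes (1.11%), 68 higher in D1 (0.743%) and 34 higher in D2 (0.372%). Of the genes called by annotation, 78 of the D1 side and 38 of the D2 side were tested here, and all had the same direction. The Drd1 side held 1351 cells annotated D1 and 5 annotated D2, and the other side 2053 annotated D2 and 120 annotated D1, so the grouping reuses cells of the same labels and the shared direction is no separate support. At an FDR under 0.05 stood 71 and 35 of them, 56 and 28 also with an FC above 2. Their median log2 FC went from 1.58 to 1.28 on the D1 side and from -1.36 to -1.31 on the D2 side. Tac1 (2.82 ± 0.03, FDR 3.1e-57 from edgeR), Penk (-3.95 ± 0.03, FDR 1.1e-63) and Gpr6 (-3.62 ± 0.14, FDR 2.6e-29) kept values near those by annotation. Tac2 had a log2 FC of 3.21 ± 0.21 and Adarb2 of 2.93 ± 0.25, the members with the largest loss of FC. Calls of 18 further genes were made by this grouping alone. Only cells annotated as MSNs entered it, so the outer border of the MSNs still rests on the clustering.

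**Figure D3:**
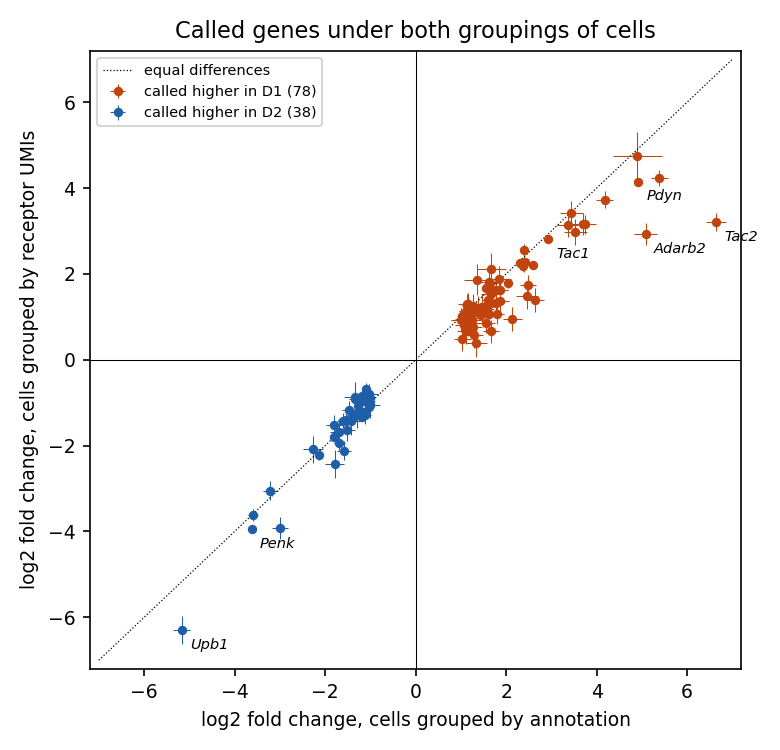
Log2 fold change (D1 minus D2, with SE bars) of the 78 and 38 called genes tested under both groupings, by annotation on the horizontal axis and by receptor UMIs on the vertical axis. Every gene stays on its side of 0, and Tac2 and Adarb2 lie farthest below the dotted line of equal differences.

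Counts of calls in the lists below stand beside the 1.39% of all genes called higher in D1 and the 0.518% called higher in D2. Among receptors for dopamine and adenosine, 4 of 9 were tested, and the remaining tested member, the adenosine A1 receptor gene Adora1, had a log2 FC of -0.02. Of the opioid and tachykinin genes 7 of 13 were tested, with Tac2, Tac1 and Pdyn called higher in D1 and Penk higher in D2. The receptors of that list passed the FDR without the FC: Oprk1, the kappa receptor for dynorphin, had a log2 FC of 0.62, and Oprl1, the nociceptin receptor, 0.99. The mu and delta opioid receptors and the 3 tachykinin receptors were too low to be tested. Of 5 serotonin receptors tested, Htr2a was called higher in D2, with 20.5, 15.5, 27.3 and 22.9 CPM against 5.29, 9.52, 7.49 and 5.87 CPM (log2 FC -1.54 ± 0.19). Htr1f was called higher in D1 with 15.1 to 24.2 CPM against 3.91 to 11.4 CPM (1.16 ± 0.19), a call that ended at 1.00 without WT replicate 1. The only muscarinic receptor tested, Chrm1, had -0.03.

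Of 31 genes of the cyclic AMP cascade tested, 1 was called, where 1.91% of all genes were. It was Gnas, the ubiquitous stimulatory G protein alpha subunit, with 326, 336, 329 and 264 CPM in D2 cells and 156, 146, 142 and 133 CPM in D1 cells (log2 FC -1.19 ± 0.05). Gnal, the related subunit that carries D1 and adenosine receptor signals in the striatum, did not pass the test, with 369 to 441 CPM in D1 cells and 353 to 459 CPM in D2 cells (-0.08 ± 0.04, FDR 0.21 from edgeR). At any FC, 15 members, Gnas among them, were higher in D2 and 3 higher in D1 at an FDR under 0.05, where 7.17% and 5.78% of all genes passed in these directions. Scaled by library size alone, 13 members were higher in D2 and 4 in D1, against 3.87% and 9.31% of all genes. Arpp19, a phosphatase inhibitor, had -0.82 and Gnai1, an inhibitory alpha subunit, 0.75. The median of the list was -0.20 against -0.0013 over all genes tested.

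Genes that mark both MSN types were tested in full, 16 of 16, and none was called. With 1.91% of all genes called, a list of 16 is expected to hold few calls or none. Bcl11b, a transcription factor MSNs need to mature, was 248 to 262 CPM in D1 cells and 230 to 270 CPM in D2 cells, and the ranges overlapped (log2 FC -0.04 ± 0.05). Ppp1r1b, which encodes DARPP-32, was 1087 to 1597 CPM in D1 cells and 1250 to 1853 CPM in D2 cells, higher in the D2 cells of each library by -0.27 to -0.06 on the log2 scale. Gad2, a GABA-synthesizing enzyme, was the 1 member higher in D1 at an FDR under 0.05 (0.14 ± 0.04), and 9 were higher in D2 (8 with library size alone), against the same 7.17% of all genes higher in D2. Among these were Foxp1 (-0.75 ± 0.04), a transcription factor, and Ptpn5 (-0.45 ± 0.04), a phosphatase. Foxp1 was 385 to 430 CPM in D1 cells and 578 to 742 CPM in D2 cells without overlap. The signs of Bcl11b, Slc32a1 and Meis2 turned when sums were scaled by library size alone.

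Of 23 transcription factors of MSNs tested, Isl1, Ebf1, Foxp2 and Tshz1 were called higher in D1 and Sp9 higher in D2. Over all genes tested, 1.39% were called higher in D1 and 0.518% higher in D2. Tshz1, a zinc finger factor of the ventral forebrain, was 108, 101, 131 and 116 CPM in D1 cells against 41.7, 41.6, 46.1 and 27.0 CPM in D2 cells (log2 FC 1.44 ± 0.09). It is also a marker of a D1-related group known as eccentric MSNs, and of the 6 tested genes of that list Otof (1.86 ± 0.19) and Pcdh8 (1.56 ± 0.19) were called higher in D1 as well. All 6 had positive log2 FC, from 0.52 to 1.86. Otof, a calcium sensor of vesicle release, was 18.0 to 38.9 CPM in D1 cells and 5.01 to 10.9 CPM in D2 cells. Under the receptor grouping Otof had 1.64 ± 0.22, whereas Pcdh8 fell to 0.86 ± 0.24 and was not called. The deposited annotation does not divide the MSNs, and whether these genes are high in the same D1 cells was not tested. Of 10 tested genes of the patch and matrix compartments, Pdyn, Tac1 and Lypd1 were called higher in D1. Lypd1, a modulator of nicotinic receptors, was 130 to 179 CPM against 55.7 to 86.0 CPM (1.13 ± 0.07). Calb1, a matrix marker, had a log2 FC of -0.66, below the limit on FC.

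Molecules of wiring and adhesion were called on both sides, where 1.39% of all genes were called higher in D1 and 0.518% higher in D2. Of 42 axon guidance genes tested, Sema6a, Sema5a, Nrp2 and Sema6d, ligands and a receptor of the semaphorin system, were called higher in D1, with log2 FC of 1.15 to 1.99. Sema6a and Sema5a were low, at 4.14 to 9.49 and 6.17 to 9.55 CPM in D1 cells. Their D2 sums held 1 to 5 and 3 to 8 UMIs. Oligodendrocytes held Sema6a at 44.1 to 104 CPM and vascular cells at 59.2 to 88.8 CPM, and the part of such RNA was not tested. The netrin receptors Unc5d (-1.59 ± 0.15) and Unc5c (-1.23 ± 0.17) were called higher in D2. Of 40 adhesion and synapse genes, 3 were called higher in D1, Lingo2 and Cntnap3 among them, and Slitrk6, Cbln4 and Nrxn2 were called higher in D2. Nrxn2, a presynaptic adhesion gene, was 62.6, 58.1, 80.9 and 59.8 CPM in D1 cells and 132, 123, 141 and 164 CPM in D2 cells (-1.19 ± 0.07), with no overlap between types. Cntnap3 was 17.0 to 29.4 CPM against 0.417 to 3.64 CPM, and Cbln4, a secreted synaptic organizer, 18.0 to 28.0 CPM in D2 cells against 7.49 to 11.4 CPM in D1 cells. Of 19 protocadherins and cadherins, Pcdh15, Pcdh8, Cdh13 and Cdh22 were called higher in D1 and none higher in D2. Cdh13 (1.02 ± 0.10) sat at the limit on FC and fell below it, to as low as 0.97, with a library left out. Cdh22 overlapped between types and lost its call without either Setd1a+/- library (FDR 0.054 and 0.080 from edgeR).

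Receptors and ligands of growth factors were called on the D1 side, 3 of 9 tested, where 1.39% of all genes were called higher in D1. Gfra1, a co-receptor for GDNF, was 27.3, 25.0, 28.0 and 16.5 CPM in D1 cells and 0.781 to 2.91 CPM in D2 cells (log2 FC 3.53 ± 0.25). Erbb4, the neuregulin receptor, had 2.46 ± 0.24 and Nrg3, a neuregulin, 1.85 ± 0.34. Of 46 potassium channel genes tested, Kcnk9 (1.95 ± 0.29) and Kcnj3 (1.25 ± 0.28) were called higher in D1, and both stayed between 5.00 and 14.1 CPM in D1 cells. The call of Kcnj3, a channel subunit opened by G proteins, was not made by DESeq2 (adjusted p 0.13). Cacna2d2 was the only call among 19 calcium channel genes, and none of 9 sodium channel genes, 13 synaptotagmins, 13 GABA receptor genes, 16 RGS proteins, 5 metabotropic glutamate receptors or 5 endocannabinoid genes was called. Grik3 was the only call among 12 ionotropic glutamate receptor genes. With 1.91% of all genes called, lists of these sizes are expected to hold few calls or none.

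Markers of other cell types were low in both MSN types. Summed over the oligodendrocyte list they were 135 to 1025 CPM in D1 cells and 113 to 825 CPM in D2 cells, against 54632 to 68687 CPM in oligodendrocytes, and they were highest in replicate 1 of both genotypes. Interneuron markers summed to 60.0 to 113 CPM in D1 cells and 68.0 to 110 CPM in D2 cells, against 4181 CPM or more in interneurons. Of that list Nos1, nitric oxide synthase, was called higher in D2, with 3.12 to 9.36 CPM against 1.76 to 5.50 CPM. Its groups overlapped, its ratio was reversed in Setd1a+/- replicate 1, and the call ended without WT replicate 1 or Setd1a+/- replicate 2 (FDR 0.21 and 0.16 from edgeR). Astrocyte, microglia, vascular and neuroblast markers held no call, at 18.7 to 250 CPM per list in either type. Gfap had no UMI in D2 cells, Chat none in D1 cells and Acta2 none in either. Markers of excitatory neurons were at most 5.99 CPM in sum.

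The type difference was then estimated in each genotype, in a fit with a separate D1 minus D2 coefficient for WT and Setd1a+/- mice. WT mice had 137 genes called higher in D1 (1.31%) and 58 higher in D2 (0.556%), together 1.87% of genes tested, and Setd1a+/- mice had 142 (1.36%) and 54 (0.518%), together 1.88%. Called in both, in the same direction, were 132 genes (1.27% of those tested), 95 higher in D1 (0.911%) and 37 higher in D2 (0.355%). Genes called over all libraries were chosen from these same libraries, so their shared direction in each genotype is no separate support. All of the 145 genes called higher in D1 over all libraries had that direction in each genotype. Of the 54 called higher in D2, all had it in WT and 52 in Setd1a+/- mice, the exceptions being the hemoglobin genes Hba-a2 and Hbb-bt. DESeq2 made fewer calls within a genotype, 50 and 26 for WT against 45 and 33 for Setd1a+/- libraries.

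**Figure D4:**
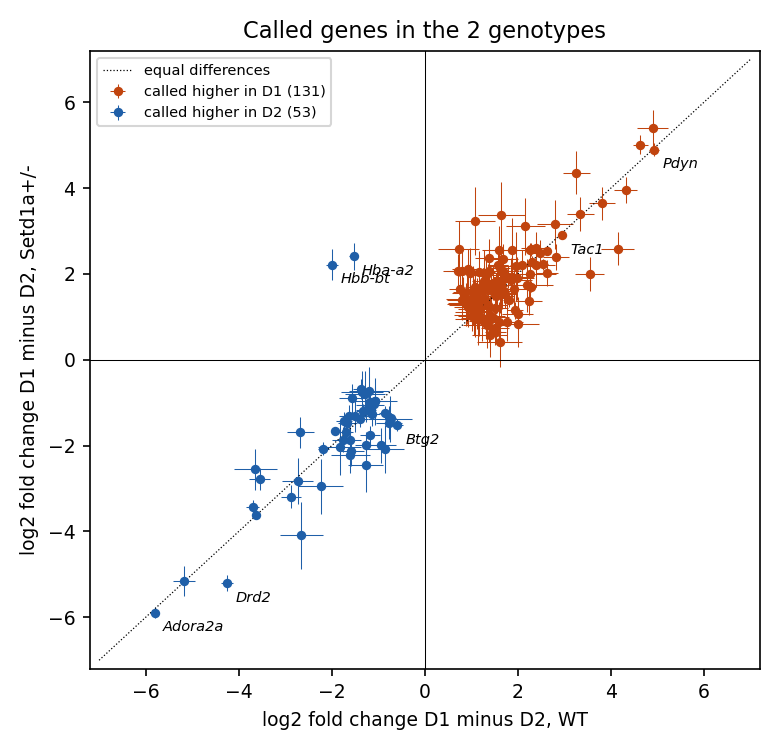
Log2 fold change, D1 minus D2, in Setd1a+/- mice (vertical) against WT mice (horizontal), with SE bars, for the 184 called genes with UMIs in all 8 sums (15 others are left out). Of the 131 genes called higher in D1 and 53 called higher in D2 that are drawn, Hba-a2 and Hbb-bt alone lie across 0.

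A test of whether the D1 minus D2 difference itself differed between genotypes called 9 genes at an FDR under 0.05 (0.0863% of 10425), and 4.46% of genes had an unadjusted p under 0.05. DESeq2 called none, with 20 genes at an unadjusted p under 0.05 against 465 with edgeR. With so few low p-values DESeq2 could hardly call a gene, so its lack of calls does not decide on the 9. Among the 9 were 4 hemoglobin genes, which are products of red blood cells. Hbb-bs was 88.8, 311, 46.5 and 267 CPM in D1 cells and 569, 682, 55.5 and 40.0 CPM in D2 cells of WT replicates 1 and 2 and Setd1a+/- replicates 1 and 2. Its log2 ratio of D1 to D2 was -2.68 and -1.13 for WT but -0.26 and 2.74 for Setd1a+/- libraries, so the Setd1a+/- libraries differed from each other in sign. In a robust fit, genes of outlying spread were drawn less toward the shared spread, while the others still took it. The 4 hemoglobin genes had an FDR of 0.999 from edgeR in that fit. It was added after these values had been seen, and it called 4 genes (0.0384%). Vascular cells held Hbb-bs at 7093 to 13369 CPM and droplets with at most 100 UMIs at 677 to 1379 CPM, and the part of such RNA was not tested. The other 5 genes were Gadd45g, Junb, Scg2, Btg2 and Ptgds, and the first 4 kept an FDR under 0.05 in the robust fit (3.2e-05, 6.0e-05, 0.011 and 0.011 from edgeR). With the replicate number as a block on the type difference, Scg2 (FDR 0.066) and Ptgds (0.20) were not called.

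Junb and Btg2 belong to the immediate early genes, which neurons switch on within minutes of activity or stress. Of 18 tested, Egr2, Egr4, Btg2, Arc and Fos were called higher in D2 cells over all libraries, and 12 passed the FDR in that direction and none in the other, where 7.17% and 5.78% of all genes did. With library size alone 11 passed it in that direction, against 3.87% of all genes, and none in the other. In the robust fit Btg2 was not called (FDR 0.082 from edgeR) and Junb did not pass the FDR (0.072). The median log2 FC of the list was -0.59. Fos was 56.1, 55.9, 72.4 and 49.6 CPM in D1 cells and 103, 77.5, 191 and 111 CPM in D2 cells, the highest in the D2 cells of Setd1a+/- replicate 1, and the groups did not overlap. Vascular cells held Fos at 3946 to 5269, Junb at 1324 to 2415 and Btg2 at 1156 to 1612 CPM. Droplets with at most 100 UMIs held them at 218 to 364, 227 to 264 and 78.7 to 145 CPM, and the part of such RNA in these differences was not tested. The calls of Fos, Arc and Btg2 sat at the limit on FC and ended, at log2 FC of -0.98 to -0.79, when either Setd1a+/- library was left out. Junb was 182, 240, 163 and 222 CPM in D1 cells and 288, 339, 402 and 428 CPM in D2 cells. Its D1 minus D2 difference was -0.64 ± 0.06 for WT libraries and -1.16 ± 0.07 for Setd1a+/- libraries, a difference between genotypes of -0.53 ± 0.09 (FDR 3.9e-05 from edgeR). This call between genotypes, like that of Btg2, was lost in some fits with a library left out. Btg2, which slows cell division, had differences of -0.60 ± 0.14 (WT) and -1.52 ± 0.15 (Setd1a+/-), and its level in D2 cells was 55.1 and 42.3 CPM for WT but 109 and 85.8 CPM for Setd1a+/- libraries. Gadd45g, a stress-responsive gene outside the list, was 162 and 120 CPM in the D2 cells of WT and 230 CPM in both libraries of Setd1a+/- mice, with 155 to 164 CPM in all D1 cells. Of the 18 genes, 15 had a lower difference in Setd1a+/- mice and 11 had both Setd1a+/- ratios below both WT ratios, against 49.4% and 16.2% of all genes tested. These genes are induced together and are not separate replicates, and this count was made after the pattern had been seen. Per the study's methods, cells were freed from live tissue by papain digestion, and the part of that step in these levels was not tested.

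**Figure D5:**
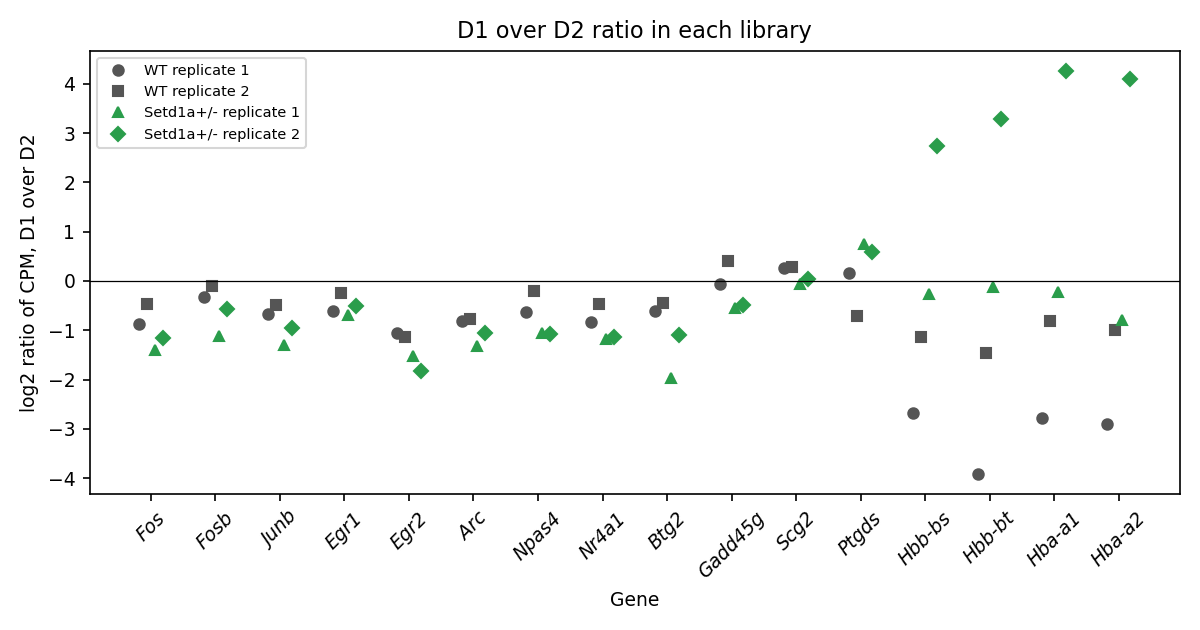
Log2 ratio of D1 to D2 (CPM) in each of the 4 libraries for some immediate early genes, Gadd45g, Scg2, Ptgds and hemoglobin genes, WT in grey and Setd1a+/- in green. Junb, Btg2, Arc and Nr4a1 lie lower in both Setd1a+/- libraries than in both WT libraries. Of these, Arc and Nr4a1 were not called between genotypes. Jund, Egr3, Egr4, Nr4a3, Ier5 and Homer1, which lack that order of libraries, are not drawn. For Hbb-bs the ratio runs from -2.68 to 2.74 with libraries of the same genotype far apart.

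D1 cells made up 60.3% and 63.1% of the MSNs in WT replicates 1 and 2 and 63.5% and 59.4% in Setd1a+/- replicates 1 and 2. The 95% Wilson intervals, which cover counting error alone, were 57.9 to 62.6%, 61.0 to 65.2%, 60.3 to 66.6% and 57.1 to 61.7%. The mean of Setd1a+/- mice differed by -0.23 percentage points from that of WT mice (61.5% against 61.7%), less than the spread between replicates. The exact permutation test (two-sided, 2 against 2 libraries) gave p = 1.0, where 0.333 is the smallest value this design allows.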

How the data were processed

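Droplet-based RNA sequencing counts were deposited by the authors as raw UMI counts per gene and barcode (Cell Ranger 3.0.2, empty droplets included), with a table naming the library and cell type of each annotated cell. The other columns of that table (cell totals and coordinates of the integrated data) and a separate gene-by-cell table without gene names were not used. Per the study's methods, cells under 800 genes or over 10% mitochondrial UMIs were removed, libraries were integrated in Seurat 3.2.0 and clusters were named. The genome build of the counts is not given in the sources used here; coordinates are from GENCODE vM21 (GRCm38), in which 31011 of 31053 gene IDs were found.

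UMIs were summed over D1 and over D2 cells in each library. Sums were tested with edgeR 4.0.16 in R 4.3.3 (TMM, filterByExpr with a minimum count of 10, glmQLFit, library as block; the same with type nested in genotype for the genotypes and their difference), with Benjamini-Hochberg adjustment over 10425 genes. The test was checked on counts simulated with the spread that the fit itself gave. At an FC of 2 it recovered 96.4% of changes between D1 and D2 at an FDR under 0.05, with 4.06% of such genes false. The limit on FC was not applied in this check, so these shares do not describe the calls of D1 against D2. For changes between genotypes, which are called without that limit, the shares were 56.6% and 6.67%, and at an FC of 1.5 the test recovered 19%. Such counts cannot show how the test does for genes that vary more between libraries. DESeq2 1.42.0 was an alternative. DEsingle, the study's tool for single cells, was not used. No doublet caller was run; cells with both kinds of receptor and the 5% of cells with the most UMIs were left out in an alternative.

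Members and gene lists were chosen with earlier results of these data known. Named genes were the 14 with the largest FC per direction among calls with 1 direction in all 4 libraries and at least 20 CPM in every library of the higher type, the members of the identity and shared lists, up to 6 called members of each other list, genes called between genotypes, and Setd1a; further genes named beside a list or a limit were chosen after their values were seen. The 9 motifs were chosen after matches in some promoters had been seen. Some genes that meet the rule are not reported here. The libraries are pools of mice, and the p-values rest on a spread shared by nearly all genes rather than on the spread of each gene between libraries. Depth limits low genes: a count of 0 allows up to 3 UMIs per sum. Scripts ran in Python 3.11.15 (numpy 2.4.6, pandas 2.3.3, scipy 1.17.1).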

Additional observations from a re-analysis of the deposited data

Results flagged for a closer look

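For 9 genes the D1 minus D2 difference differed between genotypes by the test of that difference (edgeR, FDR under 0.05). The log2 difference, Setd1a+/- minus WT, was 3.55 for Hbb-bs, 4.72 for Hba-a1, 3.94 for Hba-a2 and 4.21 for Hbb-bt. Their FDR values from edgeR were 1.4e-161 to 6.3e-27, and none held in the robust fit (FDR 0.999 from edgeR). Without Setd1a+/- replicate 2 the differences of Hba-a1, Hba-a2 and Hbb-bt were 1.04, 0.63 and 1.77, and that of Hbb-bs was 1.37. The difference was -0.69 for Gadd45g, -0.53 for Junb, -0.28 for Scg2 and -0.92 for Btg2, and 0.83 for Ptgds, a gene that oligodendrocytes held at 3135 to 5335 CPM. With a library left out, the call of each of these 5 genes was lost in some fits. Such fits leave 1 library in a genotype, whose spread is then not measured, so the log2 ratios of D1 to D2 are given. For WT replicates 1 and 2 and Setd1a+/- replicates 1 and 2 they were -0.07, 0.40, -0.54 and -0.48 for Gadd45g and -0.66, -0.49, -1.30 and -0.95 for Junb. For Btg2 they were -0.62, -0.45, -1.97 and -1.09, for Scg2 0.27, 0.29, -0.05 and 0.05, and for Ptgds 0.16, -0.71, 0.74 and 0.59.

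In 3 of 81 genes examined with a ratio in all 4 libraries, 1 library lay apart from the other 3 by Dixon's test, and chance alone gives about 1 in 20. The log2 ratio of D1 to D2 was 0.083 for Gad1 and -0.68 for Ptpn5 in Setd1a+/- replicate 1, and -0.70 for Htr2a in WT replicate 2.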

How the results depend on the processing

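Against 145 and 54 genes called higher in D1 and in D2, the receptor grouping called 68 and 34, cells thinned to 1000 UMIs 70 and 30, and 335 cells per library and type 81 and 34; the cause was not tested. An FC above 1.5 gave 308 and 159 and no limit on FC 603 and 747. DESeq2 gave 50 and 26 in WT, 45 and 33 in Setd1a+/- mice, 59 genes called in both genotypes against 132, and 0 against 9 between genotypes; the cause was not tested here either. In the robust fit, added after seeing the data, 4 of the 9 were called. It called 145 and 51 genes higher in D1 and in D2, with the calls of Btg2, Hba-a2 and Hbb-bt lost. Genes without outlying spread still took the shared spread there, so these counts do not rest on the spread of each gene. With each library left out, calls ranged from 147 to 159 higher in D1, from 46 to 61 higher in D2 and from 4 to 18 between genotypes. The difference in the D1 share ranged from -2.27 to 1.81 percentage points, turning sign without replicate 2 of either genotype.

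The comparison of D1 with D2 has the library as block; with no block it called 112 and 42. For the difference between genotypes, a replicate block on the type effect called 7 genes, without Scg2 and Ptgds. The methods describe replicates that each held a WT and a Setd1a+/- sample, with no day or litter given. Same-numbered libraries deviated together in the levels of D1 cells (correlation 0.416 across genes) and of D2 cells (0.320) but not in D1 minus D2 (0.011), with 2 pairs, so both fits are given.

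Signs turned for genes that were not called: Bcl11b (0.057) and Gnal (0.056) under the receptor grouping, Gad1 (0.014) and Meis2 (0.043) in thinned cells, Bcl11b (0.033), Slc32a1 (0.032) and Meis2 (0.025) with library size alone, and Setd1a without WT replicate 1 (range -0.20 to 0.0013 with each library left out). DESeq2 size factors changed no call of a named gene. Depth limits low genes most in the D2 cells of Setd1a+/- replicate 1, the smallest sum.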

Other observations

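Some called genes lay side by side on the chromosomes. With a window of 200 kb, set after such pairs had been noticed, 13 pairs among the 199 called genes were found (GRCm38), and 12 of them were called in the same direction. Drd1 and Sfxn1, both higher in D1, lie 16.2 kb apart on chromosome 13 with no tested gene between them. Adora2a and Upb1, both higher in D2, lie 66.3 kb apart on chromosome 10, and Gpr6 and Fig4, both higher in D2, 115.9 kb apart on the same chromosome. Fxyd5, Fxyd7 and Fxyd1 on chromosome 7, all higher in D1, have gaps of 31 and 210 bases. Whether reads that run past the end of a gene are shared among them was not tested. Slc39a6 and Fhod3 on chromosome 18 were the pair called in opposite directions. Several pairs share a gene and are not independent: those among Gm48057, Gpr6 and Fig4, among Stmn1, Selenon and Man1c1, and among the Fxyd genes. No test of the count of pairs was made, and no such count was made over all genes tested. As 72.9% of all calls were higher in D1, many pairs would share a direction in any case.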
